A study of Rattus norvegicus with 12 samples.

Results

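The genes described here code for chaperones and folding enzymes of the endoplasmic reticulum (ER) and for the signalling proteins of the unfolded protein response (UPR). A list of 40 gene symbols was matched to probe sets that carry exactly 1 gene symbol, and each gene was read at its brightest probe set, by the mean of the 12 arrays. By this rule 37 of the 40 genes were measured, among 14217 genes on the array. The 3 symbols without a match were Ern1, Derl3 and Cars. The gene listed as Cars appears in the annotation as Cars1, which was read aside and not counted among the 37.

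RNA of the forebrain came from 12 male Long Evans rats, 6 weeks old and housed singly, and each animal was measured on 1 Affymetrix array. The control group was 6 rats left in their standard cage. The exposed group was 6 rats placed for 3 hours in an unfamiliar enclosure with objects of varied shape and colour. The labels name no genetic alteration and no drug in either group, and they do not say whether the control rats were handled or moved. Intensities are the deposited values in arbitrary linear units, changes are exposed minus control on the log2 scale with the standard error (SE) of the limma fit, and a gene is said to have risen or fallen where its p, adjusted by Benjamini-Hochberg over all 31042 probe sets, was under 0.05. Intensities of different probe sets have no common scale, so levels are compared between animals and not between genes.

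Proteins bound for the cell surface, for secretion or for synaptic membranes enter the ER unfolded, are held by the Hsp70 family chaperone BiP (the product of Hspa5), and gain their disulfide bonds and sugar chains there. When unfolded proteins accumulate, the membrane sensors IRE1 (Ern1), PERK (Eif2ak3) and ATF6 start the UPR: IRE1 splices the mRNA of Xbp1, ATF6 is cut and moves to the nucleus, and PERK slows translation while raising that of ATF4. The resulting factors act on chaperone genes through ER stress elements and on amino acid and stress genes through ATF4 sites, and in neurons the same chaperones serve the folding of receptors, channels and secreted peptides.

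Of the 37 measured genes 10 rose in exposed animals and 0 fell. The 10 were the chaperone and chaperone partner genes Hspa5, Sdf2l1, Creld2, Manf, Dnajc1 and Dnajb11, the transcription factor genes Xbp1, Ddit3 and Atf4, and Ppp1r15a, a phosphatase subunit that ends the translation block. Their increases were small, from 1.09-fold for Atf4 to 1.39-fold for Hspa5. The disulfide bond enzymes, lectin chaperones, degradation genes, translocation genes and the 2 measured sensors had no member that passed. With 2.62% of all genes higher, 0 in groups of 2 to 7 measured genes is near that share. With a term for animals numbered 1 to 3 against 4 to 6 in the labels, 13 genes rose: Atf4 was lost (adjusted p = 0.0577), and Hsp90b1 (0.00456), Herpud1 (0.0134), Calr (0.017) and Dnajc3 (0.03) were added, which brings in 1 degradation gene and 1 lectin chaperone. With each animal number as a replicate block instead, 6 genes rose: Dnajb11, Sdf2l1, Manf, Atf4 and Ppp1r15a were lost and Hsp90b1 was added. What these animal numbers mark is not stated in the labels, which also name no division between animals 3 and 4.

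Over all 14217 genes 2.62% rose and 0.844% fell, against 27% and 0 of 37 here. In limma 17 of the 37 genes had an unadjusted p under 0.05, all with a positive change, a threshold that 15.9% of all genes met, 8.77% with a positive and 7.1% with a negative change. In 10 of the 37 genes, or 27%, all 6 exposed animals lay above every control animal, against 2.5% of all genes. All 6 lay below every control in 0 of the 37 and in 0.879% of all genes. The median log2 change was 0.08 over the 37 genes and 0 over all genes. The list was drawn up with results of these arrays known, so these counts describe it and are not an independent test.

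**Figure D1:**
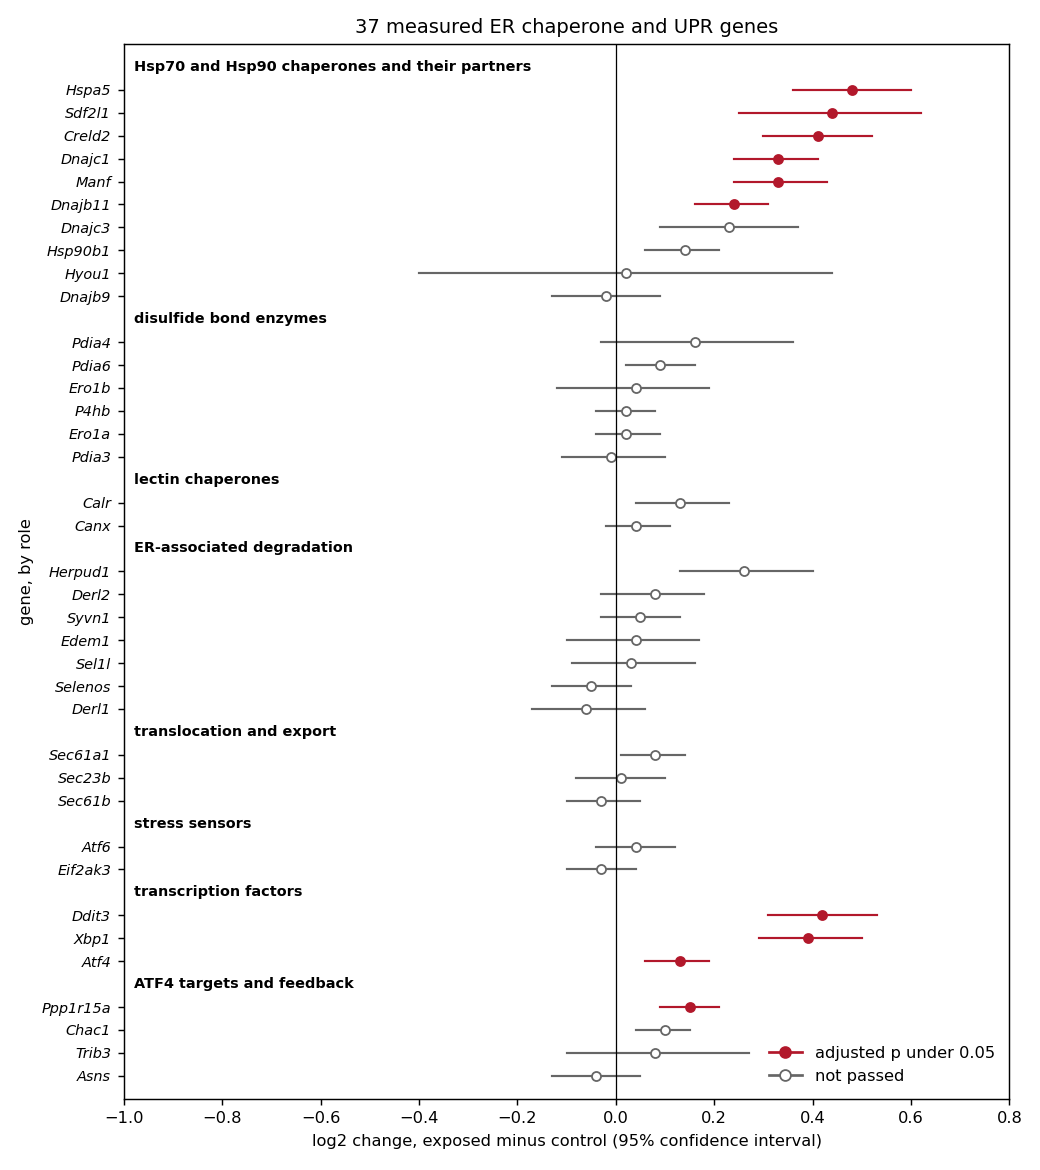
Log2 change of each measured gene (x axis, exposed minus control, 6 animals per group) with its 95% confidence interval, grouped by role (y axis), filled red where the adjusted p was under 0.05. The filled points are 6 chaperones and chaperone partners, 3 transcription factors and Ppp1r15a, and no interval of an open point reaches above 0.44 or below -0.4.

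The promoters of 4 of the genes that rose are shown because each holds an ER stress element, the sequence through which ATF6 and XBP1 are known to act. The element is spelled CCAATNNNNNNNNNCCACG, and a second form is ATTGGNCCACG, each read on both strands. Each promoter runs from 250 bases before to 50 bases after the start of transcription, 5′ to 3′ on the gene's strand, from RefSeq on the rat build GRCr8, with the element in capitals. The promoter of Hspa5 lies at chr3:38452766-38453065 on the plus strand, Creld2 at chr7:121789134-121789433 on the plus strand, Xbp1 at chr14:84604373-84604672 on the plus strand, and Dnajb11, which has the second form, at chr11:91672751-91673050 on the minus strand. In Creld2 the element is read on the opposite strand, so its capitals show the reverse complement.
Hspa5: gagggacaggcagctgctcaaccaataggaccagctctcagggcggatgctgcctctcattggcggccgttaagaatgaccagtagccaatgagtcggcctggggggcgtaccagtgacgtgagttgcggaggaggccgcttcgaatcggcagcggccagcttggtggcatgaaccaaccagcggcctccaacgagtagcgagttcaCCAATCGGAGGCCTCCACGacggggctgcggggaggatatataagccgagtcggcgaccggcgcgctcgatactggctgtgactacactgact
Creld2: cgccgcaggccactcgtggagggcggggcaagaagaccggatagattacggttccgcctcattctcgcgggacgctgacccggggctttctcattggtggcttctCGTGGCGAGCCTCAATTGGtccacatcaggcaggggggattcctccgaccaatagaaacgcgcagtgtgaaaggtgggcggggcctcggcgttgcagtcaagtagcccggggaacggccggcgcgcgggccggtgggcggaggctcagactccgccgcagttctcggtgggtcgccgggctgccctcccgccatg
Xbp1: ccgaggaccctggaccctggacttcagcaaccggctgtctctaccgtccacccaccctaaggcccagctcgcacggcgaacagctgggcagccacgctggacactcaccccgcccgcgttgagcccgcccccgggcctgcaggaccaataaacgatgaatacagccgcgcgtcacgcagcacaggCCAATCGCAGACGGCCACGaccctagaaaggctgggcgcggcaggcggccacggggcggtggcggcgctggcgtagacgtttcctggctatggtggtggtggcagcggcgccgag
Dnajb11: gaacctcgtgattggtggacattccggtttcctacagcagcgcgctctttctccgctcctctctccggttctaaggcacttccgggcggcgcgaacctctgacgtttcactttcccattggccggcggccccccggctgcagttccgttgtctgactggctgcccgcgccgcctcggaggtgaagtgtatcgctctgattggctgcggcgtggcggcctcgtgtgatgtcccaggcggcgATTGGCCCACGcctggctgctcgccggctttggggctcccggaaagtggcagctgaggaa

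The 10 elements of the first form that were found in the promoters of the listed genes are given below in one reading direction, with both fixed ends in capitals, to show that the 9 bases between them differ from element to element.
Hspa5: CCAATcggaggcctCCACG
Creld2: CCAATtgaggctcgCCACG
Xbp1: CCAATcgcagacggCCACG
Dnajc3: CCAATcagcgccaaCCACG
Hsp90b1, farther from the start: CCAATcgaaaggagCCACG
Hsp90b1, nearer to the start: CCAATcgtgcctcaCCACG
Calr: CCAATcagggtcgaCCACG
Canx: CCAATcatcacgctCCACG
Ero1b: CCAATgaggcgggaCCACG
Derl3: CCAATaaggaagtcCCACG

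A promoter was present in the RefSeq table for 31 of the 40 listed genes. The first form was found in 9 of these 31 genes, or 29%, and in 21 of all 27457 genes of the table, or 0.076%, so that 9 of the 21 genes were on the list. The second form was found in 3 of the 31 (Hyou1, Dnajb11 and Herpud1) and in 17 of the 27457 genes, or 0.062%. The element was present on both sides of the threshold. It was found in 3 of the 9 genes that rose and had a promoter (Hspa5, Creld2 and Xbp1) and, among the 21 other measured genes with a promoter, in 5 (Hsp90b1, Dnajc3, Ero1b, Calr and Canx). The median log2 change was 0.185 over the 8 measured genes with the first form, 0.24 over the 3 with the second form only (range 0.02 to 0.26), 0.05 over the 19 with neither form, and 0.04 over the 7 with no promoter in the table. The difference between these classes was not tested.

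**Figure D2:**
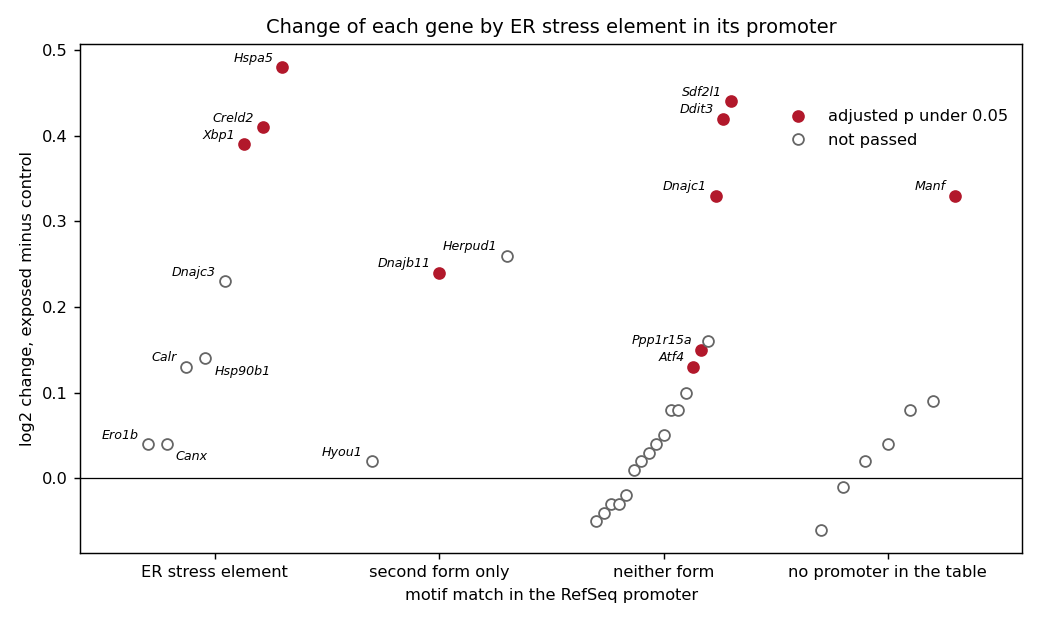
Log2 change of each of the 37 genes (y axis, exposed minus control) by the ER stress element matched in its RefSeq promoter (x axis), filled red where the adjusted p was under 0.05. Genes that rose are seen in every class: 3 of 8 with the first form, 1 of 3 with the second form only, 5 of 19 with neither and 1 of 7 with no promoter in the table.

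The other motifs were rare among the listed genes. The core of the UPR element, TGACGTGG, was found in Hyou1 and in 0.681% of all genes, and the core TGATGCAA, at which ATF4 is known to bind, in Herpud1 and Chac1 and in 0.827% of all genes. In Hyou1 the UPR element core overlaps a match of the second ER stress element. The cAMP response element TGACGTCA, bound by the activity-regulated factor CREB, was found in Ppp1r15a, from -66 to -59 relative to the start, and in 2% of all genes. A match is a description of these letters and does not show that a factor binds there.

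Among the 10 genes of ER chaperones and chaperone partners 6 rose, against 2.62% of all genes, and the median log2 change of the 10 was 0.28. Hspa5 codes for BiP, the Hsp70 chaperone that binds unfolded chains and also holds the UPR sensors inactive. Its intensities in control animals 1 to 6 were 4447, 4432, 4337, 3866, 3640.4 and 3967, and in exposed animals 1 to 6 they were 6047, 6020.3, 5842, 5563, 5298 and 5592. The groups did not overlap, and the lowest exposed animal was 1.19 times the highest control. The mean went from 4115 ± 337 (SD, n = 6) to 5727 ± 294, a log2 change of 0.48 ± 0.06 (SE, 1.39-fold, adjusted p = 0.00101). In both groups animals 4 to 6 were all lower than animals 1 to 3. The rise was 0.44 within animals 1 to 3 and 0.52 within animals 4 to 6.

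The products of Dnajb11 and Sdf2l1 work together in the lumen: DNAJB11 (ERdj3) is an Hsp40 protein that passes clients to BiP, and SDF2L1 is its stable partner. Sdf2l1 measured 507, 441, 547, 527, 445 and 440.0 in control animals 1 to 6 and 787, 672, 663, 568, 631 and 617 in exposed animals 1 to 6. Its lowest exposed value was 1.04 times the highest control, so the groups were apart by little, and exposed animal 1 was the highest of the 12. The log2 change was 0.44 ± 0.08 (1.35-fold, adjusted p = 0.0198), and it missed the threshold in 4 of 25 alternatives: without control animal 5 (adjusted p = 0.0511), with animal number as a replicate block (0.0779), with the RNA quality covariate (0.0837) and without control 4 and exposed 3 and 5 (0.0996). Dnajb11 measured 669, 715, 726, 695, 681 and 714 in control animals and 871, 832, 800.2, 786, 869 and 788 in exposed animals. All exposed values were above all control values, and the log2 change was 0.24 ± 0.03 (1.18-fold, adjusted p = 0.00306). It was 0.25 among animals 1 to 3 and 0.22 among animals 4 to 6. Dnajb11 missed the threshold in 1 of 25 alternatives, with the replicate block (adjusted p = 0.0719).

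Creld2 and Manf code for small ER proteins that are themselves secreted under stress. CRELD2 is a folding factor with epidermal growth factor domains, and MANF is a neurotrophic factor that binds BiP. Creld2 measured 464, 536, 515, 514, 503 and 465 in control animals and 677, 706, 587, 643, 697 and 668 in exposed animals. Manf measured 1430.0, 1582, 1549, 1617, 1650.4 and 1526 in control animals and 2111, 2040.4, 1876, 1848, 1863 and 2046 in exposed animals. In both genes all 6 exposed animals lay above every control animal. The log2 change was 0.41 ± 0.05 for Creld2 (1.33-fold, adjusted p = 0.00151) and 0.33 ± 0.04 for Manf (1.26-fold, adjusted p = 0.00216). Creld2 passed in all 25 alternatives, and Manf missed the threshold in 1, with the replicate block (adjusted p = 0.0679).

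Dnajc1 codes for ERdj1, a J protein of the ER membrane that brings BiP to ribosomes at the translocon. It measured 283, 287, 304, 258, 282 and 289 in control animals and 376, 355, 338, 351, 348 and 364 in exposed animals. The groups did not overlap, and the log2 change was 0.33 ± 0.04 (1.25-fold, adjusted p = 0.00128). A dimmer Dnajc1 probe set changed by 0.03 ± 0.04 on the log2 scale (adjusted p = 0.955), and the difference between the probe sets was itself -0.3 ± 0.04 (adjusted p = 0.00746 over 6609 pairs of probe sets). The third Dnajc1 probe set was at the intensity floor of 53.8 on all 12 arrays and gives no change. Which transcripts the Dnajc1 probe sets detect was not tested, since probe sequences were not used here.

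The other 4 genes of this role did not pass. Hsp90b1, which codes for the lumenal Hsp90 protein GRP94, went from 4748 ± 159 to 5221 ± 266, with 5 of 6 exposed animals above every control and a log2 change of 0.14 ± 0.03 (adjusted p = 0.0758). Dnajc3, the cochaperone p58IPK, had 0.23 ± 0.06 (adjusted p = 0.104), also with 5 of 6 animals above. Dnajb9, the Hsp40 protein ERdj4 that brings BiP to IRE1, had -0.02 with a 95% interval of -0.13 to 0.09. Hyou1, a nucleotide exchange factor of BiP, had 0.02 with an interval of -0.4 to 0.44. Its 12 values ranged from 254 to 520.5, and the highest and the second lowest were both control animals, and its interval was the widest of the 37 genes.

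**Figure D3:**
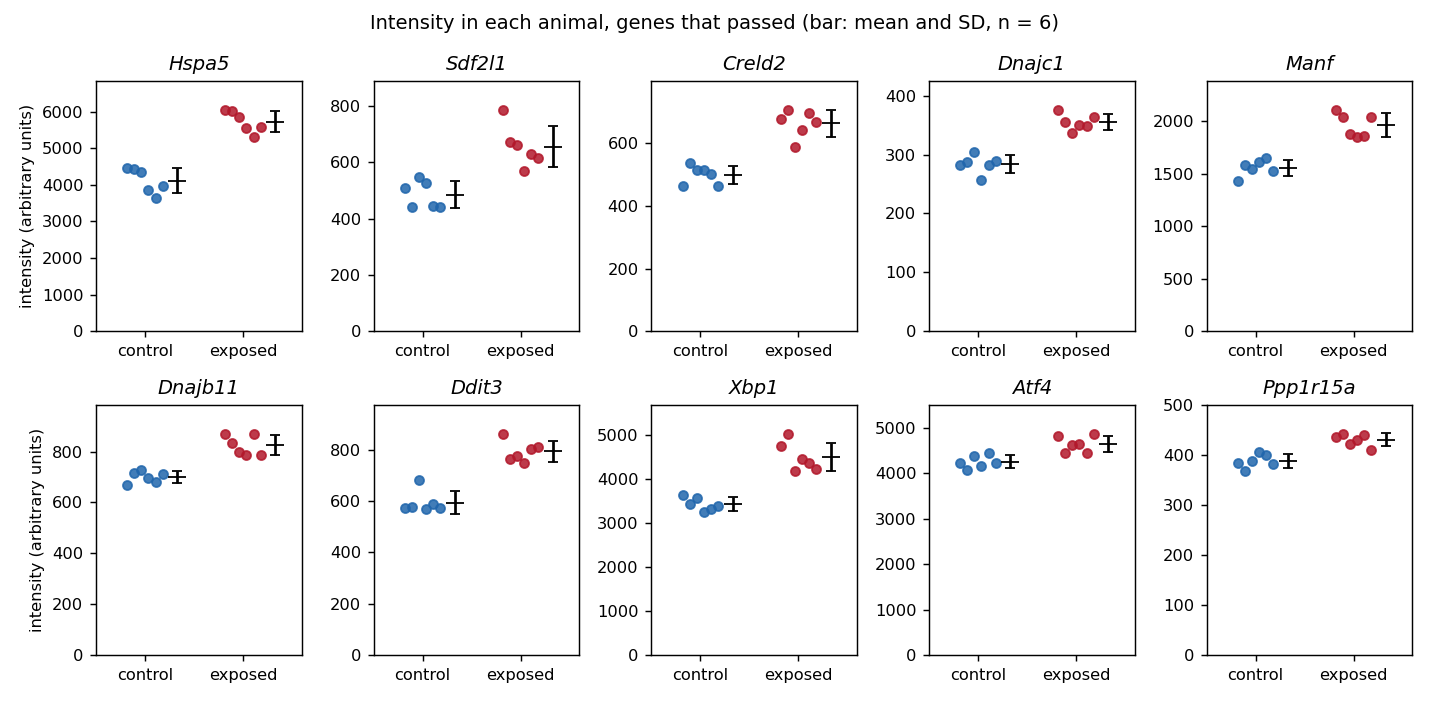
Intensity (y axis, arbitrary units, from 0) of each of the 10 genes that rose in 6 control (blue) and 6 exposed (red) animals, with points from left to right for animals 1 to 6 and bars for the mean and SD. In each gene but Atf4 every exposed animal lies above every control animal.

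Disulfide bonds are made in the ER by protein disulfide isomerases, which the oxidases ERO1A and ERO1B recharge. None of the 6 measured genes passed, where 2.62% of all genes rose. An unadjusted p under 0.05 in limma was met by 1 of the 6, beside 15.9% of all genes. The median log2 change of the 6 was 0.03. Pdia4 had the largest, 0.16 ± 0.09 (adjusted p = 0.507, 3 of 6 exposed animals above every control), and Pdia6 had 0.09 ± 0.03 (unadjusted p = 0.0128 in limma, adjusted p = 0.186). P4hb had 0.02 with a 95% interval of -0.04 to 0.08, Ero1a 0.02 with -0.04 to 0.09, Ero1b 0.04 with -0.12 to 0.19 and Pdia3 -0.01 with -0.11 to 0.1. Dnajb11, with the smallest change among the 6 chaperone genes that rose, had an interval of 0.16 to 0.31. The intervals of Pdia4 (up to 0.36) and Ero1b (up to 0.19) overlap it, and that of Pdia6 ends at 0.16. Those 6 genes were picked for having passed, and the difference between genes was not tested.

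Calnexin and calreticulin hold glycoproteins by their sugar chains. Calr, the soluble form, went from 3715 ± 186 to 4078 ± 246, with 4 of 6 exposed animals above every control (log2 change 0.13 ± 0.04, adjusted p = 0.184). Neither gene passed. Canx, the membrane form, had 0.04 ± 0.03 (adjusted p = 0.671), and its dimmer probe sets had -0.08 and 0.01.

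Proteins that fail to fold are drawn back to the cytosol and degraded. Of the 7 measured genes of this route none passed, where 2.62% of all genes rose. An unadjusted p under 0.05 in limma was met by 1 of the 7, beside 15.9% of all genes. Herpud1, which helps assemble the ubiquitin ligase HRD1, came nearest. It measured 822, 813, 897, 940.1, 982 and 984 in control animals and 1134, 1079.9, 949, 1132, 1131 and 1089.7 in exposed animals. Exposed animal 3 was the lowest of its group and lay among the controls, while the other 5 were above every control. The log2 change was 0.26 ± 0.06 (1.2-fold, adjusted p = 0.0542). Without exposed animal 3 the adjusted p was 0.0203, and over 25 alternatives it ran from 0.00084 to 0.121, under 0.05 in 7.

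The ligase and channel genes of the same route showed smaller differences. Syvn1, the ligase HRD1 itself, had a log2 change of 0.05 ± 0.04, and its partner Sel1l had 0.03 ± 0.05. The channel genes Derl1 and Derl2 had -0.06 ± 0.05 and 0.08 ± 0.05, Selenos -0.05 ± 0.04 and Edem1, a lectin that picks misfolded glycoproteins, 0.04 ± 0.06. The smallest adjusted p of these 6 genes was 0.592. Edem1 was -0.1 among animals 1 to 3 and 0.18 among animals 4 to 6.

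Of the genes for entry and exit, Sec61a1, the pore of the translocon, had a log2 change of 0.08 ± 0.03 (adjusted p = 0.289), Sec61b -0.03 ± 0.03 and Sec23b, a coat protein of export vesicles, 0.01 ± 0.04. None passed, and Sec61a1 alone had an unadjusted p under 0.05 in limma (0.0292). Of all genes 2.62% rose and 15.9% met that unadjusted threshold.

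Neither measured sensor gene passed, and neither had an unadjusted p under 0.05 in limma. Of all genes 2.62% rose and 15.9% met that unadjusted threshold. Eif2ak3 measured 455, 443, 452, 464, 453 and 453 in control animals and 471, 435, 429, 476, 436 and 417 in exposed animals. The control animals spanned 443 to 464, and the exposed animals lay on both sides of them, 2 above and 4 below. Atf6 measured 1451, 1345, 1419.9, 1397, 1403 and 1451 in control animals and 1419, 1488, 1407, 1426, 1611 and 1375 in exposed animals, with exposed animal 5 the highest of the 12. The log2 changes were -0.03 with an interval of -0.1 to 0.04 and 0.04 with an interval of -0.04 to 0.12. The activity of PERK and ATF6 is set on the proteins, which these arrays do not measure, and Ern1 had no probe set of its own symbol.

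All 3 transcription factor genes rose. Xbp1 codes for the factor that IRE1 activates by splicing. It measured 3633, 3431, 3569.5, 3241, 3312 and 3371 in control animals and 4731, 5026, 4182, 4456, 4359 and 4229 in exposed animals. The groups did not overlap, with the lowest exposed animal at 1.15 times the highest control. The log2 change was 0.39 ± 0.05 (1.31-fold, adjusted p = 0.00126) and the same within animals 1 to 3 and within animals 4 to 6. The probe set gives 1 value for the gene, and spliced and unspliced mRNA were not distinguished here.

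Ddit3 codes for CHOP, a factor known for its part in cell death under long ER stress and for switching on Ppp1r15a. It measured 575, 579, 685, 569, 590.3 and 572 in control animals and 865, 764, 777, 748, 804 and 814 in exposed animals. Control animal 3 was well above the other controls, which lay between 569 and 590.3, and still below every exposed animal. The log2 change was 0.42 ± 0.05 (1.34-fold, adjusted p = 0.00121). It passed in all 24 alternatives in which its only probe set was kept.

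Atf4, the factor whose translation PERK raises, changed least of the 3. It measured 4235, 4074, 4380.5, 4161, 4454 and 4234 in control animals and 4816, 4454, 4629, 4656, 4448 and 4880.4 in exposed animals. Of the exposed animals 4 lay above every control, and animals 2 and 5 lay level with control animal 5. The log2 change was 0.13 ± 0.03 (1.09-fold, adjusted p = 0.0481). This call was lost in 17 of 25 alternatives, among them 9 of the 12 that each omit 1 animal. Without control 1, 2, 3, 4 or 6, or without exposed 1, 3, 4 or 6, the adjusted p lay between 0.0658 and 0.108.

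Of the 4 measured genes grouped here as ATF4 targets and feedback, 1 rose, where 2.62% of all genes rose. Other ATF4 and amino acid response genes are given further on. Ppp1r15a, or GADD34, directs a phosphatase to eIF2α and so restores translation. It measured 384, 368, 388, 405, 399 and 381 in control animals and 436, 442, 422, 429.6, 440.5 and 409 in exposed animals. The groups were apart by little, with the lowest exposed value 1.01 times the highest control, and the log2 change was 0.15 ± 0.03 (1.11-fold, adjusted p = 0.0156). It missed the threshold in 2 of 25 alternatives, without control 4 and exposed 3 and 5 (adjusted p = 0.0547) and with the replicate block (0.0907).

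Chac1, which degrades glutathione, measured 730.4, 757, 784, 761, 792 and 788 in control animals and 867, 816, 799.7, 841, 807 and 802 in exposed animals. All 6 exposed animals were above every control, yet the log2 change of 0.1 ± 0.03 did not pass (adjusted p = 0.088). Asns, asparagine synthetase, had -0.04 with an interval of -0.13 to 0.05. Trib3, a pseudokinase that restrains ATF4, had 0.08 ± 0.09 at low intensities of 71.8 to 108. Cars1, a tRNA synthetase read aside, had 0.03 ± 0.04 (adjusted p = 0.913).

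Some exposed animals were the highest or the lowest of their group in several of the genes that rose. Exposed animal 1 was the highest of its group in 6 of the 10 genes that rose (Hspa5, Dnajb11, Dnajc1, Sdf2l1, Manf and Ddit3), and exposed animal 2 in 3 (Creld2, Xbp1 and Ppp1r15a). The lowest was exposed animal 4 in 4 genes, animal 3 in 3, animal 5 in 2 and animal 6 in 1. The median over the 10 genes of the log2 difference from the control mean was 0.44 in exposed animal 1 and 0.26 in exposed animal 3, with the other 4 between, and from -0.03 to 0.06 in the control animals. These 10 genes were picked for being higher in the exposed group. Over all 37 measured genes the median was 0.12 in exposed animals 1 and 2, 0.07 in animals 3, 4 and 5, 0.06 in animal 6, and from -0.03 to 0.03 in the control animals. Over the 37 genes the exposed animals were thus spread about as widely as the controls. Differences between exposed animals were not tested.

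**Figure D4:**
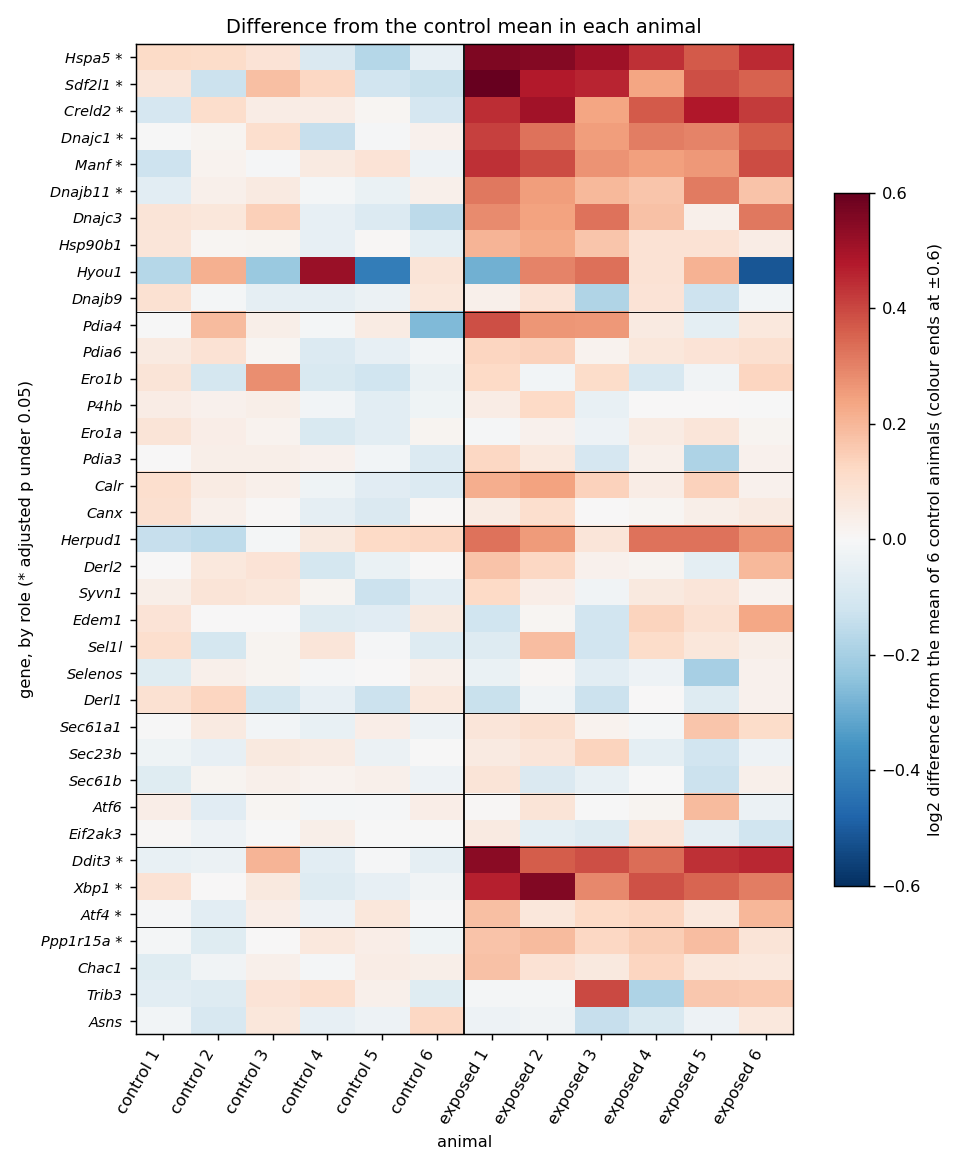
Log2 difference from the mean of the 6 control animals (colour) for each of the 37 genes (y axis, by role, an asterisk marks adjusted p under 0.05) in each of the 12 animals (x axis). The rows with an asterisk are red in all 6 exposed animals, palest in Atf4 and Ppp1r15a, while rows of Hyou1 and Trib3 change colour within a group.

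Few genes passed in 7 further lists, of the secretory pathway, ER calcium handling, stress signalling and the amino acid response. Of 226 measured genes 6 rose, or 2.65%, and 0 fell, close to the 2.62% and 0.844% of all genes, and their median log2 change was 0. At an unadjusted p under 0.05 in limma, in either direction, were 50 of the 226, beside 15.9% of all genes. These were 8 of 28 degradation, 8 of 41 translocon, 7 of 30 export, 5 of 28 stress signalling and 14 of 43 ATF4 genes, and those named next. None rose among 33 other ER folding enzymes (7 with an unadjusted p under 0.05 in limma) or among 23 genes of ER calcium handling (1 such gene), beside 15.9% of all genes at that threshold. Among other degradation genes 1 of 28 rose, Ubxn4, an ER membrane adaptor of the ATPase p97 (1.07-fold, adjusted p = 0.0375). Among translocon, signal peptidase and glycosylation genes 1 of 41 rose, the translocon gene Tram1 (1.07-fold, adjusted p = 0.0129). Among export genes 1 of 30 rose, Preb, which loads the coat GTPase SAR1 (1.12-fold, adjusted p = 0.035).

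Of 28 other stress signalling genes 1 rose, Ppp1r15b, the second phosphatase subunit for eIF2α, which went from 462 ± 13.2 to 530.4 ± 27.2 (1.15-fold, adjusted p = 0.0114). Of 43 other ATF4 and amino acid response genes 2 rose, the amino acid transporter gene Slc1a4 (1.2-fold, adjusted p = 0.0256) and Cbs, an enzyme of cysteine synthesis (1.2-fold, adjusted p = 0.0286). In these 6 genes, which were picked for having passed, all exposed animals lay above every control. Over the 226 genes this was so in 7, beside 2.5% of all genes. The median log2 change of the 43 other ATF4 and amino acid response genes was 0.05. Their changes ran from -0.08 to 0.48, and 31 of the 43 were positive, against 52.2% of all genes.

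Chaperones outside the ER are given beside the ER genes. Of 29 cytosolic heat shock genes 9 rose, or 31%, and 0 fell, with a median log2 change of 0.08. Those with the smallest p were Dnajb5 (1.52-fold), Bag3 (1.41-fold), Hspb1 (1.83-fold) and Hspa1a (1.49-fold), with adjusted p from 0.000104 to 0.00113. Of 13 mitochondrial chaperones and proteases 1 rose, Hspd1 (1.04-fold, adjusted p = 0.0426). Whether the ER list differs from the cytosolic list was not tested.

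**Figure D5:**
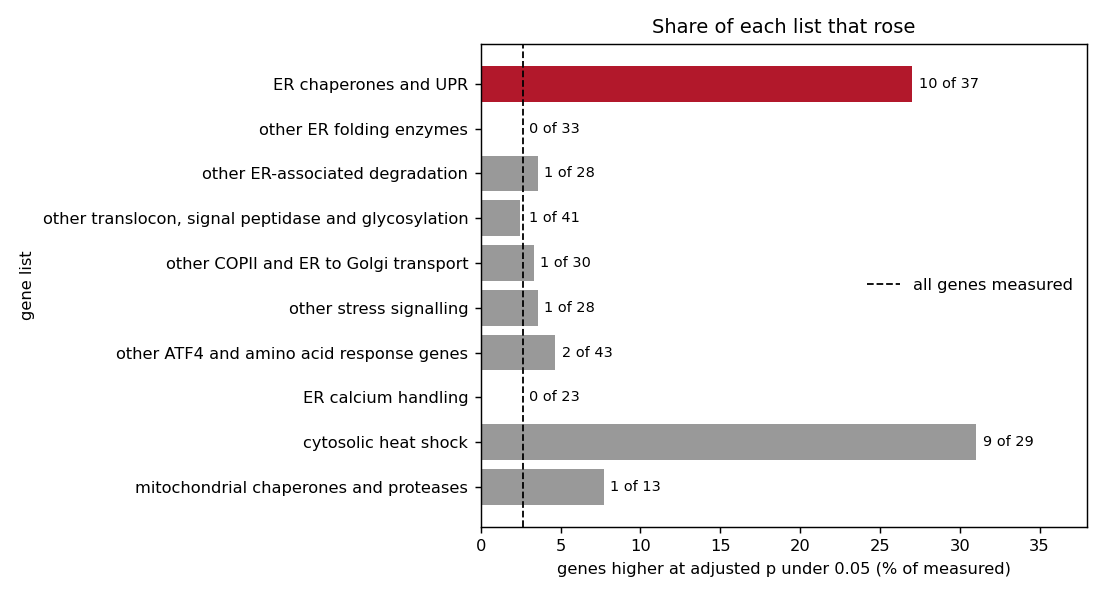
Share of measured genes that rose at adjusted p under 0.05 (x axis, percent), by gene list (y axis). The ER chaperone and UPR list is red. Grey bars are the 7 further lists and the cytosolic and mitochondrial chaperone lists, and the share over all genes is dashed at 2.62%. The ER chaperone and UPR bar stands at 27% and the cytosolic heat shock bar at 31%, and each of the 7 further lists is under 5%.

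These are bulk samples, in which fewer cells of a type and less RNA per cell cannot be told apart. All 11 neuron markers were above the intensity floor on every array, as were the 8 astrocyte and 7 oligodendrocyte markers. The same held for the 8 microglia, 9 endothelial and mural and 8 meningeal markers. Values above the floor therefore do not show that the tissue was forebrain. Of the neuron markers 0 passed (3 of 11 with an unadjusted p under 0.05 in limma, beside 15.9% of all genes). None passed among markers of astrocytes (8), oligodendrocytes (7), microglia (8) and choroid plexus and ependyma (7), with 0 under an unadjusted p of 0.05. None passed among markers of meningeal fibroblasts (8, with 2 such genes) and of hypothalamus and pituitary (10, with 1). The choroid plexus marker Kl and the pituitary marker Prl were at the floor on all arrays. Of 9 endothelial and mural markers 1 fell, Slco1a4 (0.821-fold, adjusted p = 0.00364), 3 had an unadjusted p under 0.05, and their summed intensity was 7987 to 8649 in control and 7437 to 8058 in exposed animals. That of the meningeal markers was 8930 to 10182 and 7870 to 9377. Changes were positive in 6 of 11 neuron, 4 of 8 astrocyte, 5 of 7 oligodendrocyte and 2 of 8 microglia markers, against 52.2% of all genes. They were positive in 5 of 7 choroid plexus and ependyma and 4 of 10 hypothalamus and pituitary markers. Of the endothelial and mural markers 1 of 9 was positive (median log2 change -0.05), and of the meningeal markers 1 of 8 (median -0.13). The part of these cells in the changes above was not tested. RNA quality was read as how far the 3′ control probe sets stood above their 5′ partners on the log2 scale, which averaged 0.389 ± 0.0471 (SD, n = 6) in the control group and 0.45 ± 0.0696 in the exposed group, with an exact permutation p of 0.0823 (two-sided). Exposed animal 3 had the highest value, 0.586. With it as a covariate 9 of the 37 genes rose, 8 of them among the 10, with Herpud1 added and Sdf2l1 and Atf4 lost.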

How the data were processed

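Forebrain RNA of 12 rats was hybridised as biotin-labelled cRNA to Affymetrix arrays, 1 animal per array, per the labels' protocols. The deposited table holds a linear intensity per probe set and array. The background correction, probe summary and normalization behind it are not given in the sources used here, and array medians lay between 235 and 245. The number of arrays limits the precision.

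Intensities were raised to a floor at their 20th percentile (53.8), taken to log2 and fitted with lmFit and eBayes (trend) of limma 3.58.1 in R 4.3.3, with group as the only term. Adjustment was by Benjamini-Hochberg over 31042 probe sets, without array controls. The fit was also run on simulated data with independent noise for each probe set. Effects shared between genes or animals were not simulated. Members passed no filter on low values, and 0 of the 37 had a value at the floor. Genes were named from the platform annotation, and promoters from RefSeq (GRCr8).

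The rule for named genes covers every measured member, with each animal's value for those that passed and for sensors and transcription factors, and up to 4 passing genes of each other list with the smallest p. Herpud1 and Chac1 values per animal were added after they were seen. Members and lists were chosen with earlier results of these data known. The labels do not say whether animals sharing a number are related. Correlations of same-numbered animals' deviations from their group means ran from -0.07 to 0.16. Among the control animals only number 5 matched best the exposed animal of its own number. These values do not settle whether the numbers mark pairs. The main fit did not take them as pairs, and a fit with them as a replicate block is given below.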

Additional observations from a re-analysis of the deposited data

Results flagged for a closer look

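In 3 of 74 groups of 6 animals (37 genes, 2 groups each), 1 animal stood apart from the other 5 by Dixon's gap at the 95% level, where chance gives about 1 in 20 groups. For Ddit3, control 3 had the highest control intensity, 685, and the other controls lay between 569 and 590.3. For Herpud1, exposed 3 had the lowest exposed intensity, 949, and the others lay between 1079.9 and 1134. For Selenos, control 1 had the lowest control intensity, 1996, and the others lay between 2092 and 2148.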

How the results depend on the processing

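The count of 10 members that rose stayed between 7 and 13 in every alternative except the replicate block, with 0 falling in each, and it was 9 to 11 with 1 animal left out. With the animal number as a replicate block 6 members rose: 5 of the 10, without Dnajb11, Sdf2l1, Manf, Atf4 and Ppp1r15a, and with Hsp90b1 added. Over all probe sets that block gave 359 higher and 76 lower, against 610 and 186. The count of lower probe sets was 314 with array weights, 72 with the RNA quality covariate, 82 without control 4 and exposed 3 and 5, and 103 to 182 with 1 animal left out. Hspa5, Dnajc1, Creld2 and Xbp1 passed in all 25 alternatives. The causes were not tested. Some small changes that never passed turned sign (rounded to 2 decimals): with array weights Hyou1 -0.03, Dnajb9 0.02, Pdia3 0.04, Sec61b 0 and Ero1b -0.01; with the RNA quality covariate Hyou1 -0.07, Dnajb9 0.02, Pdia3 0.02, Trib3 0, Ero1b -0.02 and Sec23b -0.02; without control 4 and exposed 3 and 5 Hyou1 0, Dnajb9 0.03, Pdia3 0.07 and Sec61b 0.01; Pdia3 0 after quantile normalization and Trib3 0 with the floor at the 40th percentile. With 1 animal left out they ran from -0.06 to 0.13 for Hyou1, -0.04 to 0.01 for Dnajb9, -0.03 to 0.03 for Pdia3 and -0.02 to 0.03 for Sec23b.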
